A study of Mus musculus with 15 samples.

Results

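Crosslink sites in the coding sequence (CDS) of mouse mRNAs were taken from the iCLIP lists of GFP-tagged tristetraprolin (TTP) and of its mutant TTP-AA. iCLIP (individual-nucleotide resolution crosslinking and immunoprecipitation) marks the nucleotide at which reverse transcription stopped next to a protein crosslinked by UV light, and the cDNA count of such a crosslink site is the number of distinct cDNA molecules that ended there. A site counted as a CDS site when it lay on the sense strand in a coding exon, stop codon included, of a protein-coding transcript and in no annotated 3′UTR on that strand. The rule gave 3851 CDS sites of 162273 sites in the 6 lists, which are 3528 distinct nucleotides of 123142. For comparison, 76894 sites lay in 3′UTRs and 1506 in 5′UTRs. The rule used positions and no measured value.

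The cells were bone marrow-derived macrophages of TTP-deficient C57BL/6 mice that had been immortalised with the oncogenes hcmyc and hRasG12V, so the endogenous protein was missing in every group. CD11b and F4/80 positive cells received a tet-inducible vector carrying the TTP coding sequence fused to GFP, either as GFP-TTP or as GFP-TTP-AA, in which the exchanges S52A and S178A (serine to alanine, counted from the start of the protein) remove the serines that the kinase MK2 phosphorylates. All cells were given doxycycline for 6 h, and LPS at 1 µg/ml for 0 h (no LPS), 1 h or 4 h. TTP was deposited as 2, 4 and 2 libraries at 0, 1 and 4 h and TTP-AA as 2, 3 and 2, but each group had a single list summed over its libraries. No spread between replicates could be computed, intervals and tests cover counting error only, and each comparison is between lists rather than between conditions. No list of cells with GFP alone was analysed here.

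TTP, encoded by Zfp36, is a zinc finger protein that binds AU-rich elements, whose core is the pentamer AUUUA, in the 3′UTRs of cytokine and other short-lived mRNAs and brings deadenylation factors to them. LPS activates p38 and MK2 in macrophages, and phosphorylated TTP is bound by 14-3-3 proteins and is less active in mRNA decay. AUUUA also occurs within coding sequences, the part of the mRNA that ribosomes move along.

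The lists held 33587, 32617, 99263, 174397, 29060 and 19167 cDNAs, in the order TTP 0 h, TTP-AA 0 h, TTP 1 h, TTP-AA 1 h, TTP 4 h and TTP-AA 4 h, which is the order of all series of 6 values given here. A count of 0 was set to 3 counts, which are 0.00172% of the deepest and 0.0157% of the shallowest list. The lists retain enriched sites only, so a 0 can also stand for cDNAs that were dropped before. Folds given as at least a value are set against these 3 counts with all cDNAs as the total. They describe the lists and do not bound the binding of the proteins. The lists of 1 h of LPS carry a mark in their headers that the other lists lack, so time of LPS and peak calling cannot be told apart. A locus of ribosomal RNA on chromosome 17 held between 2496 and 28298 cDNAs of a list, and its share differed between the proteins. For that reason the main results are also given without it or relative to mRNA regions. Of the 14 macrophage markers, 2, 3, 5, 13, 1 and 1 had a site in an mRNA region, too few to check the cell type outside the TTP-AA list of 1 h, and the marker lists of T cells (6 genes annotated), B cells (4), neutrophils (6), fibroblasts (6) and erythroid cells (5) had no CDS cDNA in any list.

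The following stretches show the sequence at sites with many cDNAs. For each gene, the site with most cDNAs summed over the lists was taken among those whose 30-base window lay within a single coding exon. The sequences are of the GENCODE M21 transcripts, with coordinates of GRCm38 (mm10), run 5′ to 3′ on the gene's strand in DNA letters, and the capital marks the crosslinked nucleotide.
Washc1, chr17:66119055-66119084, plus strand: tcgaatgtcagactcCatcccaccgctgcc
Fth1, chr19:9984790-9984819, plus strand: ttcattgagacgtatTatctgagtgaacag
Mapk15, chr15:75998172-75998201, plus strand: gggagtcctcccccaGgtcccggcggagac
Dact3, chr7:16886249-16886278, plus strand: ggtggcggccgccggGgcctcgccgtcggg
Vsig8, chr1:172562084-172562113, plus strand: cgaggtgccttcggcTacggggtcggcggc
Ccn1, chr3:145649377-145649406, minus strand: ctgccctctggaggcAcccaagtgcgcccc
Mroh6, chr15:75888682-75888711, minus strand: gtgtggggtcggggcCgggacggccgggac
Zfp654, chr16:64851529-64851558, minus strand: ctgcgggcgacggcaGagggggggccggcg
Rspo1, chr4:125007640-125007669, plus strand: ctgtgcggtttccggAagggatcggaagag
These are 9 of the 19 windows obtained by this rule, chosen for the genes described below. They held 36.7% (Fth1) to 90% (Dact3) G and C, and no AUUUA lay in them, while over all 19 windows G and C ranged from 30% to 90% and 1 window, that of Ccl2 in the second set, held an AUUUA.

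The second set shows the sites with most cDNAs among those with an AUUUA within 20 nt. Here the capitals mark ATTTA, which is AUUUA in the RNA, and the crosslinked nucleotide is the base in position 16 of each line.
Trip12, chr1:84757763-84757792, minus strand: attcttaggataATTTAttttgctgatgct
Arpc5, chr1:152771463-152771492, plus strand: ctaatgaagtatATTTAtaaaggctttgag
Ndufa4, chr6:11906074-11906103, minus strand: tcctctcttcgtATTTAttggagcaggggg
Slc35b4, chr6:34170512-34170541, minus strand: tgcgcagttcttATTTAttgctgtggaagg
Soat1, chr1:156446659-156446688, minus strand: tgaagccactATTTAtgaaggaagttgggt
Ccl2, chr11:82037022-82037051, plus strand: agaacctacaactttATTTAaaactgcatc
Copa, chr1:172104116-172104145, plus strand: tggtgggatgattgtATTTAagctggaacg
Blvra, chr2:127096858-127096887, plus strand: gaaagatcaggatatATTTAtccagaagct
Cltc, chr11:86703732-86703761, minus strand: cactggtgaaaccatATTTAcgctcagtgc
mt-Co1, chrM:6355-6384, plus strand: gctttattttcttATTTAcagttggtggtc
At 9 of these 10 sites the crosslinked nucleotide was itself a base of the ATTTA, and at the Soat1 site it was the base directly after it. The 10 do not stand for all such sites, since it was a base of the motif at 232 of 548 in TTP-AA at 1 h.

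CDS sites were a small part of every list. There were 160, 125, 992, 2331, 135 and 108 of them, with 249, 196, 1488, 3437, 244 and 150 cDNAs. The CDS held 0.741% (95% Wilson interval 0.655 to 0.839) of all cDNAs of TTP and 0.601% (0.523 to 0.691) of TTP-AA without LPS, 1.5% (1.43 to 1.58) and 1.97% (1.91 to 2.04) at 1 h, and 0.840% (0.741 to 0.951) and 0.783% (0.667 to 0.918) at 4 h. Of all cDNAs, both proteins had their highest CDS share at 1 h, but of the cDNAs in 3′UTR, CDS and 5′UTR alone they had it at 4 h (5.27, 12.3 and 18.1% for TTP and 3.08, 3.50 and 12.2% for TTP-AA, at 0, 1 and 4 h). As a share of all cDNAs, TTP was 0.758 points higher at 1 h than without LPS (95% Newcombe interval 0.635 to 0.874), and TTP-AA was 1.37 points higher (1.26 to 1.47).

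TTP-AA minus TTP was -0.140 points (-0.265 to -0.0159) at 0 h, 0.472 points (0.371 to 0.571) at 1 h and -0.0570 points (-0.217 to 0.110) at 4 h. The direction at 1 h depended on what the CDS was compared with. Among the cDNAs in 3′UTR, CDS and 5′UTR alone, the CDS held 12.3% (11.7 to 12.9) for TTP and 3.50% (3.39 to 3.62) for TTP-AA at 1 h, a difference of -8.81 points (-9.42 to -8.22). Counting each site once gave 3.82% (3.59 to 4.06) of the TTP sites and 2.69% (2.59 to 2.80) of the TTP-AA sites, and without the ribosomal RNA locus the difference was 0.103 points (-0.0262 to 0.230). The difference at 0 h no longer excluded 0 when CDS sites whose following 20 nt also occur in a transcript of another gene were left out (-0.0634 points, -0.184 to 0.0567), and with Fth1 and Washc1 left out the differences were -0.201, 0.406 and -0.0539 points.

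**Figure D1:**
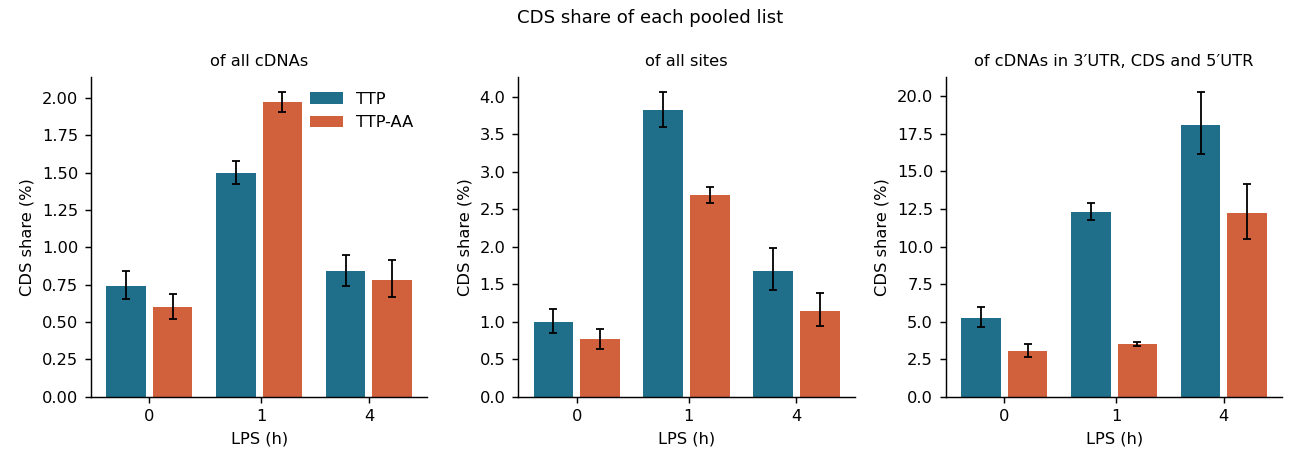
CDS share of each list in percent, of all cDNAs (left), of all sites (middle) and of the cDNAs in 3′UTR, CDS and 5′UTR (right), at 0, 1 and 4 h of LPS, with TTP in blue, TTP-AA in orange and 95% Wilson intervals as bars. At 1 h TTP-AA is the higher list in the left panel (1.97% against 1.5%) and the lower one in the middle and right panels (2.69% against 3.82% and 3.50% against 12.3%).

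Per 1000000 cDNAs of a list and per Mb of annotated sequence, the CDS had 208, 169, 420, 553, 235 and 219 cDNAs. The 3′UTR had 3927, 5560, 2907, 16186, 941 and 1575 on the same scale, and introns had 146, 131, 133, 63.2, 169 and 204. The 5′UTR had 451, 720, 1486, 972, 959 and 561. The CDS thus lay above introns and below 3′UTRs and 5′UTRs in every list. CDS sites were sparse at the 3′ ends of exons. Of the sites outside mitochondrial genes, 0, 1.71, 2.62, 1.45, 4.44 and 6.48% lay within 30 nt of the 3′ end of an exon that is followed by another, where 17.8, 14.6, 17.6, 18.7, 16.2 and 16.2% of the coding positions of the same transcripts lie. On the other side of the junctions, within 30 nt of the 5′ start of an exon that follows another, lay 17.1, 15.4, 18.6, 25.4, 8.15 and 18.5% of sites and 18, 15, 18.1, 19.1, 16.4 and 16.6% of positions, so sites were not sparse there except in TTP at 4 h. Whether reads across junctions were lost from the lists was not tested.

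Most CDS sites rested on 1 cDNA. Such sites made up 73.1, 77.6, 77.7, 79.3, 67.4 and 75.9% of CDS sites, and the mean was 1.56, 1.57, 1.5, 1.47, 1.81 and 1.39 cDNAs per site. They fell in 61, 55, 344, 634, 65 and 55 genes, 1003 genes in all. Of these, 856 genes had CDS sites in 1 list, 103 in 2, 30 in 3, 10 in 4 and 2 in 5, while Washc1 and Kl had them in all 6. The 5 genes with most CDS cDNAs held between 17.5% (TTP-AA 1 h) and 32.1% (TTP-AA 0 h) of the CDS cDNAs of a list.

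Many of these genes had no site in their 3′UTR. Without LPS, 7 of the 61 TTP genes (11.5%) and 11 of the 55 TTP-AA genes (20%) also had a 3′UTR site in the same list. After 1 h of LPS the share was 23.0% (79 of 344, 18.8 to 27.7) for TTP and 61.8% (392 of 634, 58.0 to 65.5) for TTP-AA, and at 4 h it was 0 of 65 and 3 of 55 genes. At 1 h, 55 TTP genes and 323 TTP-AA genes had more cDNAs in the 3′UTR than in the CDS. The TTP-AA list at 1 h was also the deepest, and the part of depth in these counts was not tested.

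Fth1 and Washc1 had the most CDS cDNAs. Fth1 (chr19:9980598-9985098), the ferritin heavy chain that stores iron, had 14, 11, 130, 300, 0 and 0 CDS cDNAs, so it was found for both proteins at 0 h and 1 h and for neither at 4 h. At 1 h its 3′UTR had 23 cDNAs in TTP and 88 in TTP-AA and its 5′UTR 55 and 46, fewer than in its CDS in either list. The Fth1 sites at 1 h fell into exons 3 and 5 of the 5 exons of the transcript used and into no other exon. Exon 3 (CDS nt 115 to 261) held 42 TTP and 116 TTP-AA cDNAs, and exon 5 (CDS nt 388 to 549) held 88 and 184. Of the Fth1 sites at 1 h, 20 of 71 for TTP and 21 of 101 for TTP-AA were followed by 20 nt that also occur in a transcript of another gene. Fth1 had the highest density of the named genes too, with 237 and 546 CDS cDNAs per kb of CDS at 1 h.

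Washc1, a subunit of the WASH complex that drives actin assembly on endosomes, had 9, 31, 61, 151, 10 and 6 CDS cDNAs and was present in all 6 lists. Nearly all of them ended at a single nucleotide, position 66119070 on chromosome 17 (CDS nt 1362 of 1428, in the last of 11 exons), which had 9, 31, 59, 150, 10 and 6 cDNAs. Washc1 had no cDNA in its 3′UTR in any list. The random barcode of the libraries has 4 bases, which gives 256 distinct barcodes per library for cDNAs that end at the same nucleotide.

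**Figure D2:**
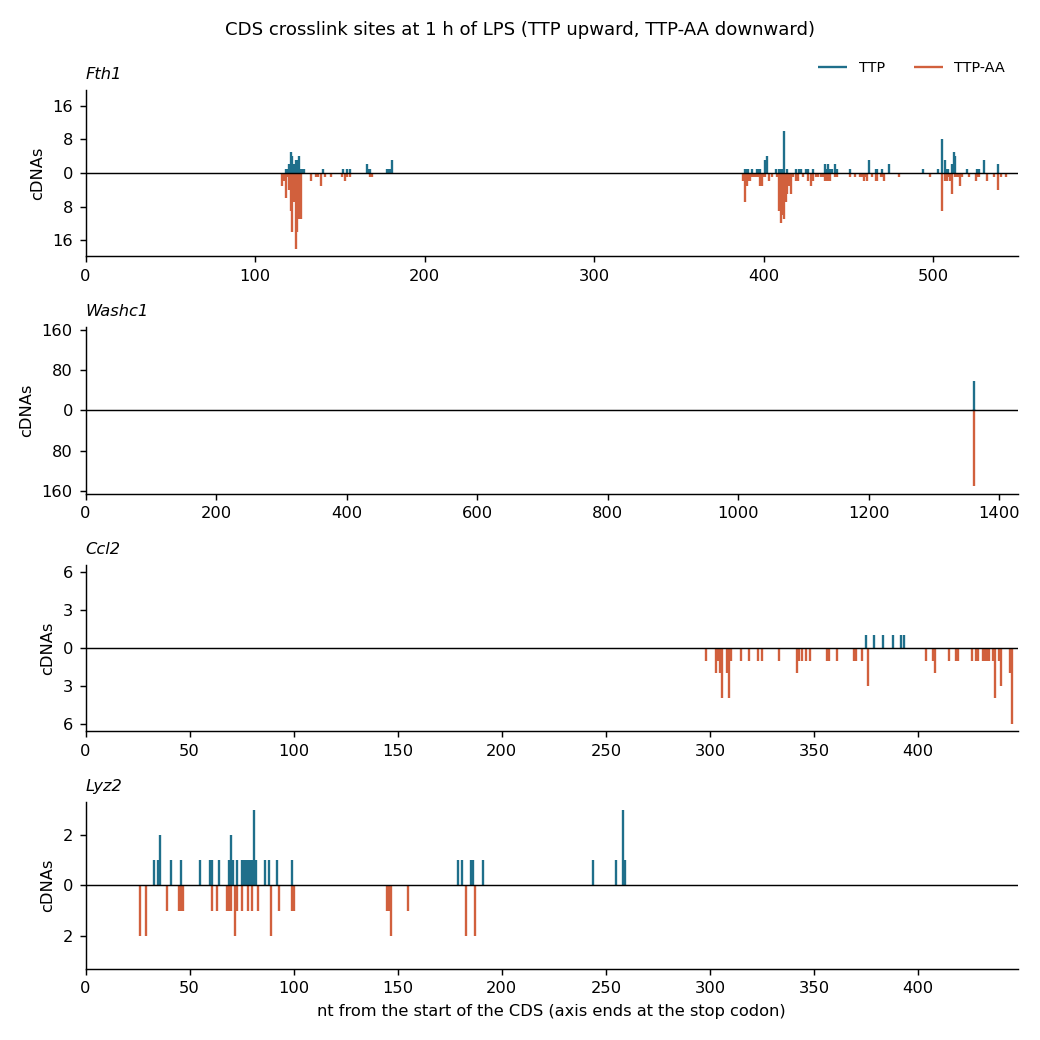
cDNAs per nucleotide along the CDS of Fth1, Washc1, Ccl2 and Lyz2 at 1 h of LPS, with nucleotides from the CDS start on the x axis, TTP drawn upwards and TTP-AA downwards. Fth1 sites fill blocks of neighbouring nucleotides in 2 exons, whereas the Washc1 cDNAs stand at a single position near the stop codon (59 for TTP and 150 for TTP-AA).

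The difference between TTP and TTP-AA was tested for each gene and region with at least 10 cDNAs over both lists of a time point, with Fisher's exact test against all other cDNAs of the lists and Benjamini-Hochberg adjustment over all genes and regions. At 1 h, 85 CDS were tested. At adjusted p under 0.05, TTP-AA was the higher list for 37 of them and TTP for 13. Over all 2728 genes and regions tested, of which 2066 were 3′UTRs, 68.7% were higher in TTP-AA and 8.65% in TTP. The CDS had 43.5% and 15.3%, and 3′UTRs had 84.0% and 0.436%. The other regions had 18.6% and 37.2% (5′UTRs), 19.7% and 45.1% (non-coding exons) and 16.4% and 32.6% (introns). The CDS thus had fewer calls towards TTP-AA than 3′UTRs, but more than each other region. The median log2 ratio of the shares (TTP-AA over TTP) was 0.54 over the 85 CDS, 2.94 over everything tested and 3.71 over the 3′UTRs. It was -0.813 over 5′UTRs, -0.974 over non-coding exons and -0.283 over introns. Relative to cDNAs in mRNA regions, none of the 37 stayed higher in TTP-AA, 35 passed in neither direction and 2 (Fth1 and Washc1) were higher in TTP, whereas all 13 stayed higher in TTP and 30 CDS were called in that direction in all. Without the ribosomal RNA locus, 30 of the 37 and all 13 kept their call.

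**Figure D3:**
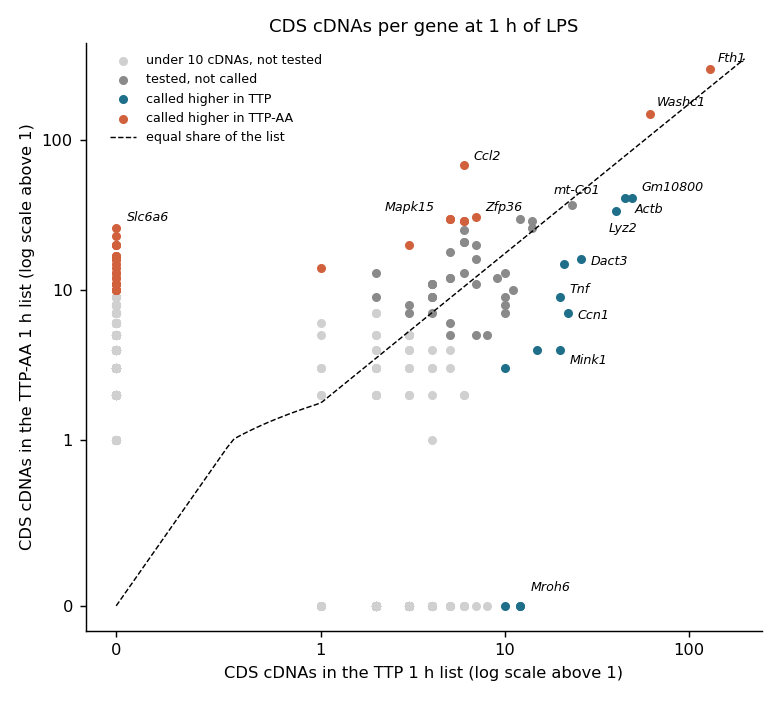
CDS cDNAs of each gene at 1 h of LPS, TTP on the x axis and TTP-AA on the y axis, both log axes that are linear below 1, with colours for the call of Fisher's exact test and a dashed line where the shares of the list totals are equal. Fth1 (130 and 300 cDNAs) and Washc1 (61 and 151) lie farthest out, Ccl2 (6 and 68) lies well above the line, and Mink1 (20 and 4), Ccn1 (22 and 7) and Tnf (20 and 9) lie below it.

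Of the genes with more CDS cDNAs in TTP-AA at 1 h, Ccl2 had the lowest adjusted p. Ccl2, a chemokine that attracts monocytes, had 0, 0, 6, 68, 0 and 0 CDS cDNAs (odds ratio 6.45, adjusted p = 2.5e-07, Fisher's exact test). Its CDS cDNAs at 1 h lay in exon 3 (CDS nt 195 to 447), the last exon, and its 3′UTR had 81 TTP and 913 TTP-AA cDNAs. Relative to mRNA regions, the CDS of Ccl2 held 0.0496% for TTP and 0.0693% for TTP-AA (adjusted p = 0.729, exact test), so the call ended under that total. Slc6a6, the taurine transporter, had 0 and 26 CDS cDNAs at 1 h and 0 in the other lists (share at least 4.93-fold higher in TTP-AA, adjusted p = 5.03e-05, exact test). Slc35b4, a nucleotide sugar transporter, had 4, 0, 0, 23, 0 and 0 (at least 4.36-fold, adjusted p = 1.38e-04, exact test). Pfn1 (profilin, which binds actin), Polr2a (the largest subunit of RNA polymerase II) and mt-Nd2 (a subunit of respiratory complex I) each had no TTP and 20 TTP-AA cDNAs at 1 h, at least 3.79-fold higher (adjusted p = 5.65e-04 for each, exact test). Of these, mt-Nd2 was also present in TTP-AA without LPS, with 6 cDNAs. Pfn1 and Slc6a6 had 3′UTR cDNAs in both lists at 1 h, 70 and 413 for Pfn1 and 31 and 215 for Slc6a6.

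The genes that were higher in TTP at 1 h kept that direction with each of the totals used. Mink1, a kinase, had 20 CDS cDNAs for TTP and 4 for TTP-AA (odds ratio 0.114, adjusted p = 1.41e-05, exact test), and 15 and 1 of them ended at a single nucleotide. Mroh6 had 0, 0, 12, 0, 15 and 3 CDS cDNAs, and mt-Cytb, the cytochrome b of complex III, had 12 and 0 at 1 h, both at least 7.03-fold higher in TTP (adjusted p = 2.25e-05, exact test). For mt-Nd1, another subunit of complex I, the counts were 10 and 0, at least 5.86-fold higher in TTP (adjusted p = 1.39e-04, exact test). Ccn1, a secreted matrix protein of the immediate early response, had 5, 0, 22, 7, 14 and 5 CDS cDNAs (adjusted p = 7.20e-05 at 1 h, exact test), with more in TTP than in TTP-AA at each time. Srrm3, a splicing factor, had 0, 0, 15, 4, 7 and 0 (adjusted p = 5.37e-04 at 1 h, exact test).

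Tnf, the cytokine whose mRNA is the classical TTP target, had 0, 0, 20, 9, 0 and 5 CDS cDNAs (odds ratio 0.256, adjusted p = 9.57e-04 at 1 h, exact test). At 1 h its 3′UTR had 727 TTP and 1673 TTP-AA cDNAs, the opposite order of counts to its CDS. Relative to the 12089 TTP and 98145 TTP-AA cDNAs in mRNA regions, however, both its CDS and its 3′UTR were higher in TTP. Actb, cytoplasmic actin, had 45 and 41 CDS cDNAs at 1 h and none at the other times (adjusted p = 0.00470, exact test), against 311 and 1116 in its 3′UTR. Of its CDS sites at 1 h, 16 of 42 for TTP and 17 of 32 for TTP-AA were followed by 20 nt found in another gene. Lyz2, the lysozyme of macrophages, had 40 and 34 at 1 h and 7 for TTP at 4 h (adjusted p = 0.00446 at 1 h, exact test). Lyz2 sites at 1 h lay in its first and second exon, and none was seen in the other exons. Dact3, an antagonist of Wnt signalling, had 8, 0, 26, 16, 13 and 0 CDS cDNAs (adjusted p = 0.00223 at 1 h, exact test). Gm10800, a predicted gene, had 49 and 41 at 1 h (adjusted p = 0.00138, exact test), but 17 of its 18 sites for TTP and 18 of its 20 for TTP-AA were followed by 20 nt found in another gene. Such sequence also followed all sites of Gm10801 at 1 h (12 and 30 cDNAs, not called) and 7 of 8 sites of mt-Cytb. Whether whole reads of these genes also match elsewhere was not tested.

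At 0 h, 7 CDS could be tested, with 1 call towards TTP-AA and 2 towards TTP, where 16.6% and 15.5% of the 541 genes and regions tested were called in these directions. Washc1 was higher in TTP-AA (9 and 31 cDNAs, odds ratio 3.55, adjusted p = 0.00254, exact test), also relative to mRNA regions. Rspo1, a secreted activator of Wnt signalling, had 14 cDNAs for TTP and 0 for TTP-AA (at least 4.53-fold higher in TTP, adjusted p = 0.00106, exact test), and Eef1a1, the elongation factor that brings aminoacyl-tRNA to the ribosome, had 12 and 0 (at least 3.88-fold, adjusted p = 0.00294, exact test). For Eef1a1, 7 of these 11 sites were followed by sequence that another gene shares. At 1 h Eef1a1 had 3 and 20 cDNAs, higher in TTP-AA (adjusted p = 0.0361, exact test), a call that ended with each of the other totals. Such shared sequence also followed 10 of its 19 sites in TTP-AA at 1 h. At 4 h, 7 CDS could be tested and 1 was called, Dact3 with 13 and 0 cDNAs (at least 2.86-fold higher in TTP), where 32.7% of the 199 genes and regions tested were higher in TTP-AA and 26.1% in TTP.

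Replication-dependent histone genes, whose mRNAs have no poly(A) tail, made up a larger part of the CDS cDNAs in TTP-AA without LPS than in the other lists. The 67 genes had 5, 27, 6, 32, 0 and 3 CDS cDNAs. In TTP-AA without LPS they made up 13.8% of the CDS cDNAs, from 6 genes, against 2.01% from 1 gene in TTP. Among them, Hist1h4h had 7 and Hist1h3c had 6 in TTP-AA at 0 h and none in TTP. In the same list the histone 3′UTRs had 683 cDNAs, against 164 for TTP. No histone CDS reached the minimum for the test.

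Of the 13 mitochondrially encoded genes, which are translated by mitochondrial ribosomes, 6 could be tested at 1 h. mt-Nd2 and mt-Nd5 were higher in TTP-AA, mt-Cytb and mt-Nd1 in TTP, and 2 did not pass, where 43.5% and 15.3% of all 85 CDS tested were called in these directions. mt-Co1, the catalytic subunit of complex IV, had 23 and 37 cDNAs and mt-Nd4 had 11 and 10. The group held 3, 10, 56, 83, 0 and 0 CDS cDNAs, and none was found at 4 h.

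Genes of the translation machinery had CDS cDNAs in every list. The 86 cytosolic ribosomal protein genes had 14, 8, 59, 124, 9 and 3 CDS cDNAs, and of the 6 tested at 1 h only Rplp1, an acidic stalk protein, was called (0 and 16 cDNAs, higher in TTP-AA). Rps2 had 5 and 18, Rps3 had 10 and 9 and Rpl8 had 5 and 12 cDNAs, without a call. The 69 translation factor genes had 12, 3, 18, 85, 0 and 0. All 3 tested at 1 h were higher in TTP-AA, Eef1a1, Eif4g2 (0 and 17 cDNAs) and Eif5a (0 and 11), and none of the 3 was called relative to mRNA regions. Of all 85 CDS tested at 1 h, 43.5% were higher in TTP-AA and 15.3% in TTP. The 14 chaperone genes had 18 TTP and 13 TTP-AA cDNAs in the CDS at 1 h and none elsewhere. Canx, the lectin chaperone of the endoplasmic reticulum, was the 1 tested, with 4 and 11 cDNAs and no call. Chaperones outside that list were called higher in TTP-AA at 1 h, Hspa4 with 1 and 14 cDNAs (adjusted p = 0.0218, exact test) and Cct7 with 0 and 10 (adjusted p = 0.0233, exact test), neither relative to mRNA regions and Hspa4 not without the ribosomal RNA locus.

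The 17 cytoskeleton genes had 54 and 73 CDS cDNAs at 1 h and none at 0 h or 4 h. Of 3 tested, Pfn1 was higher in TTP-AA, Actb in TTP and 1 was not called. The 24 cytokine and chemokine genes had 0, 0, 27, 116, 0 and 5. Of 3 tested at 1 h, Ccl2 and Ccl4, a chemokine of inflammatory macrophages with 0 and 13 CDS cDNAs and 67 and 886 in its 3′UTR, were higher in TTP-AA, and Tnf in TTP. The 27 targets that the study had named from these same samples, which are therefore no independent list, had 0, 1, 84, 226, 0 and 7, and of 7 tested at 1 h 4 were higher in TTP-AA and 2 in TTP. Mdm2, the ubiquitin ligase of p53, was among those higher in TTP-AA, with 6 and 29 CDS cDNAs beside 149 and 1674 in its 3′UTR, and its call ended without the ribosomal RNA locus. The 14 macrophage markers had 0, 4, 50, 62, 7 and 0 CDS cDNAs. Of 3 tested at 1 h, Lgals3, a lectin of macrophages, was higher in TTP-AA (0 and 15), Lyz2 in TTP, and Ctsb, a lysosomal protease, had 10 and 13 with no call. For comparison, of all 85 CDS tested at 1 h, 43.5% were higher in TTP-AA and 15.3% in TTP. Over all 2728 genes and regions tested the shares were 68.7% and 8.65%. Relative to mRNA regions, each of the calls towards TTP-AA in these groups ended.

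The 24 immediate early genes had 5, 0, 9, 34, 0 and 0 CDS cDNAs, most of them in Zfp36 itself. Its CDS, which the vectors carried, had 5, 0, 7, 31, 0 and 0 cDNAs, and its 3′UTR, which they did not carry, had 4, 0, 21, 131, 0 and 0. The CDS was higher in TTP-AA at 1 h (adjusted p = 0.0353, exact test), but not without the ribosomal RNA locus or relative to mRNA regions. At a single nucleotide, 143 nt before the end of the stop codon, 5, 7 and 19 of these cDNAs ended in TTP 0 h, TTP 1 h and TTP-AA 1 h. Of the genes used to immortalise the cells, Myc had 2 and 3 CDS cDNAs at 1 h and none elsewhere, and Hras had none in any list. The human sequences of both oncogenes were not part of the mouse annotation.

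CDS sites found in at least 4 lists were richer in G and C than the others. Of the 3528 nucleotides, 3281 were found in 1 list, 195 in 2, 36 in 3, 10 in 4, 4 in 5 and 2 in all 6. The 16 nucleotides found in at least 4 lists held 535 cDNAs. Their median content of G and C within 20 nt was 73.2%, against 43.9% for nucleotides of 1 list, 46.3% of 2 lists and 48.8% of 3 lists. None of the 16 had an AUUUA within 20 nt, against 18.7% of those of 1 list, 12.3% of 2 lists and 5.56% of 3 lists. The 16 lay in Washc1, Kl, Ccn1, Mapk15, Dact3, Vsig8, Usp3, Zfp654, Fth1 and Gm10801. Those of Usp3 and Fth1, with 39.0%, and of Gm10801, with 29.3%, were the exceptions with low G and C. Kl, which encodes the hormone and coreceptor klotho, had a site in every list with 1 to 3 cDNAs each. Neighbouring nucleotides of Ccn1, Kl, Fth1 and Zfp654 were counted separately, so the 16 are fewer independent places. Nucleotides of at least 4 lists must also lie in lists of 0 h or 4 h, where 2.96% to 12.8% of CDS sites had an AUUUA nearby. Of all 3851 CDS sites, 2331 were of TTP-AA at 1 h, where 23.5% had one. The part of these differences between lists in the contrasts above was not tested.

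The 24 nucleotides with at least 10 cDNAs in a list lay in 17 genes and held 609 cDNAs, and none had an AUUUA within 20 nt. Their G and C content was of 2 kinds. In 15 of them it was between 58.5% and 85.4% within 20 nt. In the other 9, which were 8 nucleotides of Fth1 and 1 of Gm10800, it was between 26.8% and 41.5%, below the median of nucleotides of 1 list. Those of Fth1 lay in 2 places, between CDS nt 122 and 127 in exon 3 and between nt 410 and 412 in exon 5. Mapk15, an atypical MAP kinase, had 4, 8, 3, 26, 0 and 0 cDNAs at its tallest nucleotide. Dact3 had 8, 0, 12, 6, 8 and 0, with cDNAs for TTP at each time and for TTP-AA only at 1 h. Vsig8 had 8, 3, 0, 0, 14 and 4, so it was found at 0 h and 4 h and in neither list of 1 h, although these are the deeper ones. Usp3, a ubiquitin protease of histones, had 5 cDNAs in each of the 4 lists with LPS. Single nucleotides also held most CDS cDNAs of Pou6f1 (5, 0, 6, 29, 0 and 0 at the nucleotide), Pcnt (0, 3, 12, 22, 0 and 0) and Klrg2 (3, 0, 4, 19, 0 and 0).

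**Figure D4:**
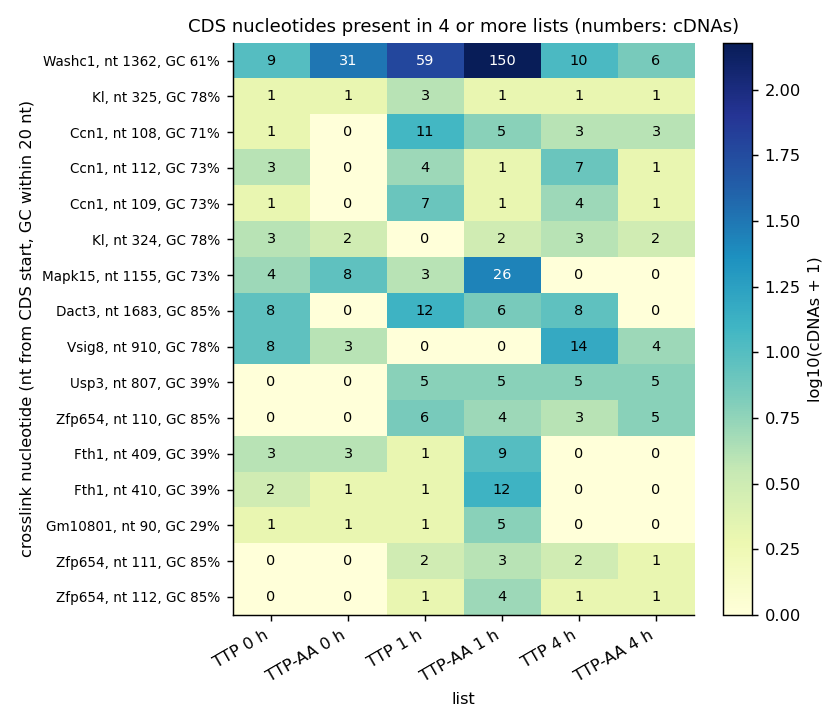
cDNAs at each of the 16 CDS nucleotides found in at least 4 lists (rows, named by gene and nucleotide from the CDS start, with the percent of G and C within 20 nt) in the 6 lists (columns). Washc1 is filled in every column, with 150 cDNAs for TTP-AA at 1 h, while Vsig8 is empty at 1 h and Usp3 without LPS.

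Genes with at least 10 CDS cDNAs showed both kinds of pattern. In TTP-AA at 1 h, the tallest nucleotide held at least 50% of the CDS cDNAs in 9 of 63 such genes, and in TTP at 1 h in 7 of 24. At 4 h it did so in all 5 such genes of TTP (Washc1, Ccn1, Vsig8, Dact3 and Mroh6). None of these 5 had a cDNA in its 3′UTR, but neither had any of the 65 genes with a CDS site in that list.

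The share of G- and C-rich sites differed between times. Sites with at least 70% G and C within 20 nt were 6.88, 4.80, 9.38, 3.09, 28.1 and 19.4% of CDS sites, with intervals of 21.2 to 36.3% and 13.1 to 27.9% for the lists of 4 h, above those of the other 4 lists. The crosslinked base was U at 41.3, 44.0, 44.2, 50.9, 23.0 and 25% of sites, while U made up between 21.5 and 23.9% of the coding bases of the same transcripts. The excess of U was therefore seen at 0 h and 1 h. At 4 h C was the most frequent base, with 36.3% (28.7 to 44.7) for TTP and 31.5% (23.5 to 40.7) for TTP-AA. C made up 25.9% and 26.1% of the coding bases there, which is inside the interval for TTP-AA.

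AUUUA was found near CDS sites more often than along the coding sequence. It lay within 20 nt of 20 of 160 sites for TTP (12.5%, 8.24 to 18.5) and of 16 of 125 for TTP-AA (12.8%, 8.03 to 19.8) without LPS, where 2.82% and 2.29% of all coding positions of the same transcripts have one. At 1 h it lay near 74 of 992 TTP sites (7.46%, 5.98 to 9.26) and near 548 of 2331 TTP-AA sites (23.5%, 21.8 to 25.3), where all positions gave 2.10% and 3.18%. At 4 h the counts were 4 of 135 (2.96%, 1.16 to 7.37) and 5 of 108 (4.63%, 1.99 to 10.4), where all positions gave 2.14% and 1.87%, inside the interval for TTP and just under it for TTP-AA. The sites were thus 4.44, 5.6, 3.55, 7.40, 1.38 and 2.47 times as often near AUUUA as all positions. In 3′UTRs, 45.7, 33.7, 37.7, 34.6, 42.1 and 29.7% of sites had an AUUUA within 20 nt.

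TTP-AA minus TTP was 0.300 points (-7.38 to 8.48) at 0 h, 16 points (13.6 to 18.3) at 1 h and 1.67 points (-3.47 to 7.70) at 4 h. The difference at 1 h was between 12 and 21.3 points under all 8 alternatives tried, which include other windows, the longer motif UAUUUA and leaving out mitochondrial genes, Fth1 and Washc1, or the last 50 nt of the CDS. Counted by gene, 25 of 344 genes (7.27%) for TTP and 163 of 634 (25.7%) for TTP-AA had such a site, a difference of 18.4 points (13.9 to 22.7). Within the 98 genes with CDS sites in both lists at 1 h, 35 of 487 TTP sites (7.19%) and 138 of 736 TTP-AA sites (18.8%) were near AUUUA, a difference of 11.6 points (7.82 to 15.1). The share in TTP-AA was like in genes with and without a 3′UTR site (23.4% of 1589 and 23.7% of 742 sites), and for TTP it was 4.46% of 381 and 9.33% of 611. Sites of 1 cDNA and sites with more gave 22.9% and 25.7% for TTP-AA and 7.13% and 8.60% for TTP.

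Where an AUUUA was near, it lay over the crosslinked nucleotide at a part of the sites. Its first base was most often the crosslinked nucleotide itself in TTP-AA at 1 h (83 sites, 3.56% of all CDS sites), and lay 3 nt before it in TTP at 1 h (12 sites, 1.21%). The crosslinked nucleotide was inside an AUUUA at 232 of the 548 TTP-AA sites near AUUUA at 1 h (9.95% of all CDS sites) and at 32 of the 74 of TTP (3.23%), so most of these sites had the motif beside them. At 4 h it was inside at 1 of 4 TTP sites and at none of the 5 TTP-AA sites. Among pentamers found near at least 20 sites in at least 10 genes, AUUUA had the highest ratio to all coding positions in both lists of 1 h, first of 974 in TTP-AA and of 710 in TTP. Next in TTP-AA were UUUAU (6.18), UAUUU (5.97) and UUAUU (5.2), which overlap AUUUA in AU-rich runs, and in TTP CGUCG (2.95), UCCGU (2.74) and UUAUU (2.59). The nonamer UUAUUUAUU, the preferred site of TTP zinc fingers, lay near 1.01% of TTP and 2.06% of TTP-AA sites at 1 h, where 0.0684% and 0.0625% of coding positions have it. UGUGU, a motif without an AUUUA, lay near 2.62% and 3.35% of sites and 3.69% and 3.56% of positions. The sense strand of the spliced transcript alone was searched, and UAUUUA and UUAUUUAUU contain AUUUA.

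**Figure D5:**
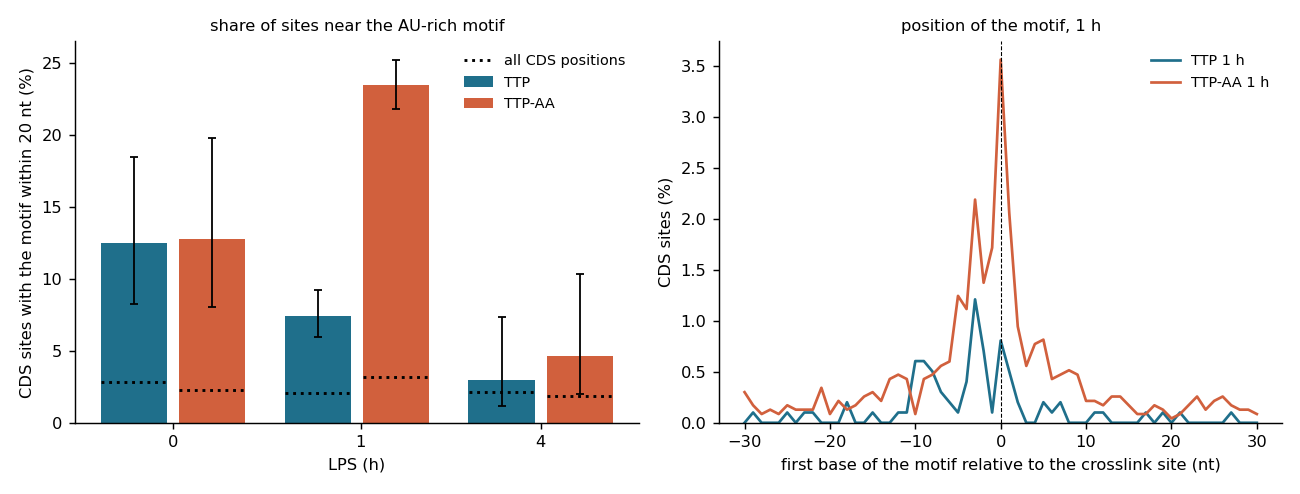
Left, percent of CDS sites with AUUUA within 20 nt in each list with 95% Wilson intervals, and dotted lines for the percent of all coding positions of the same transcripts. Right, percent of CDS sites at 1 h by the position of the first base of AUUUA relative to the site in nt, where the TTP-AA curve peaks at 0 (3.56%) and the TTP curve stays low (up to 1.21%).

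The genes with most cDNAs near a coding AUUUA include those of the second set of sequences. At 1 h mt-Co1 had 12 TTP and 28 TTP-AA cDNAs near AUUUA. Trip12, a ubiquitin ligase, had 5 and 30, Ndufa4, a protein of complex IV, 5 and 25, Arpc5, a subunit of the Arp2/3 complex, 7 and 17, and Soat1, which esterifies cholesterol, 2 and 17. Ccl2 (21), Slc35b4 (17) and Cltc, the clathrin heavy chain (14), had such cDNAs at 1 h in TTP-AA alone. In TTP alone at 1 h were those of mt-Cytb (12 cDNAs at 8 sites) and mt-Nd1 (10 cDNAs at 8 sites). For Ndufa4 and Slc35b4, TTP had 8 and 4 without LPS. Of the mt-Co1 CDS sites at 1 h, 4 of 14 for TTP and 8 of 32 for TTP-AA were followed by 20 nt found in another gene. So were 3 of 13 sites of Arpc5 and 2 of 13 of Ndufa4 for TTP-AA at 1 h. In TTP-AA at 1 h, sites near AUUUA were not those next to the stop codon, with a median of 870.5 nt to the end of the CDS against 414 nt for other sites, and 33 of the 548 lay in the last 50 nt.

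CDS sites of TTP-AA were denser towards the stop codon at 0 h and 1 h. In genes with a CDS of at least 600 nt, 23.9, 36.5, 20.5, 25.4, 13.9 and 12.4% of sites lay in the last 300 nt. Set against the length of the CDS that each site lay in, the last 300 nt had 1.4 (0.916 to 2.13), 3.18 (2.05 to 4.93), 0.992 (0.830 to 1.18), 1.34 (1.2 to 1.49), 0.908 (0.547 to 1.51) and 0.732 (0.394 to 1.36) times the sites of the rest, and the interval excluded 1 only in the TTP-AA lists of 0 h and 1 h. With lengths pooled over genes, where long genes with few sites add to the rest, the ratios were 3.11 (2.04 to 4.74), 5.81 (3.75 to 9.01), 1.91 (1.6 to 2.28), 2.46 (2.21 to 2.74), 1.86 (1.12 to 3.09) and 1.53 (0.820 to 2.84). With each CDS divided into 10 stretches of equal length, the first stretch held more sites than the last in TTP at 0 h (15 and 13), 1 h (168 and 90) and 4 h (25 and 8) and in TTP-AA at 4 h (21 and 7), and fewer in TTP-AA at 0 h (8 and 28) and 1 h (207 and 301). In TTP-AA at 1 h, 180 sites lay in the last 50 nt and 64 in the first 50 nt of these coding sequences, and in TTP at 1 h 32 and 65. Sites in the last exon were 27.2, 47.9, 23.6, 28.4, 12.6 and 19.4% of sites, where 19.1, 26.5, 17.9, 18.5, 14.8 and 19.3% of coding positions lie, so the last exon was not in excess at 4 h. The rule left out sites that another transcript places in a 3′UTR, 1, 11, 24, 192, 0 and 2 in the 6 lists. The 3 codon positions were used about evenly, with 32.5, 31.9 and 35.6% in TTP-AA at 1 h.

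The sites of TTP had a TTP-AA site nearby less often in the CDS than in 3′UTRs. Of the TTP sites in the CDS at 1 h, 35.2% (32.3 to 38.2) had a TTP-AA site in a CDS within 15 nt, against 76.6% (75.6 to 77.6) of its 3′UTR sites with one in a 3′UTR. Of the TTP-AA sites, 19.3% (17.8 to 21) had a TTP site nearby, against 21.5% in 3′UTRs. At 0 h the shares were 15.6% and 13.6% in the CDS against 41.5% and 36.5% in 3′UTRs, and at 4 h 17.8% and 16.7% against 29.4% and 18.1%. Of genes with CDS sites, 8 were in both lists at 0 h (13.1% of those of TTP and 14.5% of TTP-AA), 98 at 1 h (28.5% and 15.5%) and 12 at 4 h (18.5% and 21.8%). The lists differ in size, so that the same number of shared sites gives different shares. The regions differ in density too. TTP-AA at 1 h had 61183 sites in 33126404 nt of 3′UTR and 2331 sites in 35660959 nt of CDS. The part of site density in the difference between CDS and 3′UTR was not tested.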

How the data were processed

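The values analysed were scores of the 6 deposited lists of crosslink sites, in which a score is the number of unique cDNAs at a nucleotide and its sign gives the strand. The authors demultiplexed reads by the known barcode bases, removed PCR duplicates with the 4 random bases, mapped unique reads with Bowtie (version not given in the sources used here) to mm10 with Ensembl annotation, called the position just upstream of a read's start its crosslink site, pooled libraries within a group and retained sites enriched in iCount with 100 permutations, a neighbourhood of 15 nt and a false discovery rate under 0.05. Duplicate removal with few random bases caps tall sites, unique mapping leaves out repeated sequence, and the enrichment step drops isolated cDNAs, so the lists are not all crosslinks.

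Here each site was placed in GENCODE M21 (mm10), with 3′UTR before CDS, 5′UTR and intron. Distances and motifs were read from a representative transcript of the gene. Where that transcript did not hold the site, another coding transcript of the gene was used. Preference went to transcripts marked as principal in the annotation (APPRIS), then to a complete CDS, then to the longest CDS. Shares have Wilson and differences Newcombe 95% intervals, which treat cDNAs or sites as independent although sites of a gene are not. Genes were tested with Fisher's exact test (two-sided) over genes and regions with at least 10 cDNAs, with Benjamini-Hochberg adjustment and a threshold of 0.05. Folds against a count of 0 used 3 counts per list and all cDNAs as the total, and do not cover cDNAs lost at the enrichment step. The alternatives were other totals, sites in place of cDNAs, other windows, motifs and minimums, and leaving out single-cDNA, shared or mitochondrial sites. Named were the 5 genes with most CDS cDNAs of each list, the 5 called with the largest and the 5 with the smallest odds ratio at 1 h, up to 6 members of each gene list with at least 10 CDS cDNAs in a list, and Zfp36. Other genes named at tall or recurrent nucleotides, near AUUUA or for a changed call, and Myc and Hras, were chosen after their values were seen. The members, gene lists and rules were chosen with earlier results of these data known. The scripts were tested on simulated data and used Python 3.11.15 with numpy 2.4.6, pandas 2.3.3, scipy 1.17.1 and matplotlib 3.10.9.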

Additional observations from a re-analysis of the deposited data

Results flagged for a closer look

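TTP-AA minus TTP in the CDS share of cDNAs was not the same at all times. Its value at 1 h exceeded that without LPS by 0.612 percentage points (95% interval of the difference of differences 0.452 to 0.772) and that at 4 h by 0.529 points (0.334 to 0.717). The sign at 1 h turned when mRNA regions or sites were the total, as given above. The lists of 1 h also differ from the others in the mark in their headers.

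For the share of CDS sites with an AUUUA within 20 nt, TTP-AA minus TTP at 1 h exceeded its value without LPS by 15.7 points (7.21 to 23.8) and its value at 4 h by 14.4 points (7.87 to 20.01). Within TTP-AA the share was 10.7 points higher at 1 h than without LPS (3.53 to 15.8), and within TTP 1 h minus 0 h was -5.04 points (-11.2 to -0.414). Each comparison rests on 1 pooled list per group, and the lists of 0 h and 4 h have between 108 and 160 CDS sites.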

How the results depend on the processing

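The difference in the CDS share (TTP-AA minus TTP) reversed at 1 h with each site counted once (-1.13 points) and with mRNA regions as the total (-8.81), and no longer excluded 0 without the ribosomal RNA locus (0.103). At 4 h it excluded 0 under the same settings (-0.530, -5.88 and -0.335). At 0 h it included 0 with sites counted as CDS that also lie in a 3′UTR (-0.106), without sites of 1 cDNA (-0.115) and without sites whose following 20 nt another gene shares (-0.0634). The cause of each was not tested, and the other 18 values kept direction and call. Genes with at least 5 CDS cDNAs were 17, 9, 61, 169, 15 and 6. CDS calls numbered 3, 50 and 1 at 0, 1 and 4 h. With sites in place of cDNAs they were 1 of 2 tested at 0 h and 10 of 52 at 1 h (all higher in TTP), and no CDS had enough sites at 4 h. With at least 5 cDNAs they were 6 at 0 h, 59 at 1 h (34 higher in TTP-AA and 25 in TTP, against 37 and 13) and 4 at 4 h. With mRNA regions as the total they were 30 at 1 h (all higher in TTP) and 3 at 4 h, and without the ribosomal RNA locus 2 at 4 h. The AUUUA difference between the proteins excluded 0 at 4 h within 50 nt (6.48 points) and for UAUUUA (3.70), and kept its call in the other 22 values. The ratio to all coding positions was 7.21, 9.16, 6.75 and 12.5 within 10 nt and 2.35, 2.85, 1.65 and 3.67 within 50 nt for the lists of 0 h and 1 h, and 8.08, 15.8, 7.60, 15.3, 0 and 9.76 in the 6 lists for UAUUUA. The density near the stop codon was 12.7 (TTP-AA 0 h), 4.03 (TTP-AA 1 h) and 0.301 (TTP 4 h) times that of the rest within 100 nt, so its direction turned for TTP at 4 h. Set against the length of its own CDS it was 1.4, 3.18, 0.992, 1.34, 0.908 and 0.732, so the direction turned in TTP at 1 h and 4 h and in TTP-AA at 4 h, and an excess remained by its interval in TTP-AA at 0 h and 1 h only. It was 4.75, 9.70, 2.43 and 3.11 times when weighted by cDNAs at 0 h and 1 h. The share of sites with a site of the other protein at the same nucleotide was 6.25% and 8% at 0 h, 17.6% and 7.51% at 1 h and 11.9% for TTP at 4 h. With single-cDNA sites left out, TTP-AA without LPS had 25%, the lists of 1 h had 48.9% and 29.3%, and those of 4 h had 34.1% and 38.5%.

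No paired analysis was possible because each group was deposited as 1 list summed over its libraries, and leaving out single replicates was not run for the same reason. The settings with each site's own CDS length, without Fth1 and Washc1, without shared sequence, without the last 50 nt and with the motif inside the CDS only were chosen after seeing the data. Depth limits the lists of 0 h and 4 h most, where few CDS reached the minimum for a test.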
